A study of Mus musculus with 13 samples.

Results

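The STAT family is the set of latent transcription factors through which cytokine receptors change gene expression, and 6 of its genes are described here: Stat2, Stat3, Stat4, Stat5a, Stat5b and Stat6. They were taken from the deposited expression table by gene symbol and make up 6 of its 21073 genes. The choice was made with earlier results of these data known. The 13 RNA-seq libraries come from C57BL/6J mice immunized with MOG35-55, a myelin peptide, in complete Freund's adjuvant (CFA). DKI marks the STAT5 tetramer-deficient strain, in which changes in the N-terminal domains of STAT5A and STAT5B stop STAT5 dimers from pairing into tetramers while dimers still form. The myeloid cells were all DKI and came from mice with experimental autoimmune encephalomyelitis (EAE), induced with the same peptide plus pertussis toxin and sampled on day 14. They are 1 library each of bone marrow monocytes, spinal cord monocytes and spinal cord monocyte-derived antigen-presenting cells (APCs). The other 10 libraries are CD4+ T cells: spleen and lymph node cells were taken on day 14, expanded with the peptide under Th17 conditions, and CD4+ cells were sorted 3 days later. These mice had no pertussis toxin according to the design text, although the treatment field of the labels lists it for every sample. The Th17 groups are WT (n = 2), DKI (n = 2), DKI expanded without CCL17 (n = 3) and DKI expanded with CCL17 (n = 3), CCL17 being a chemokine that binds the receptor CCR4. Nothing in the labels says whether replicates are separate animals, so p-values measure the spread between these samples, which may be technical. No WT myeloid sample was analysed, so nothing here compares genotypes in monocytes.

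In the pathway, a cytokine binds its receptor, receptor-bound JAK kinases phosphorylate a STAT, and the paired STATs enter the nucleus and bind DNA. STAT2 joins IRF9 in the complex formed by type I interferon, STAT3 carries IL-6, IL-21 and IL-23 signals and drives Th17 identity, STAT4 carries IL-12 signals, STAT5A and STAT5B carry IL-2, IL-7 and GM-CSF signals, and STAT6 carries IL-4 and IL-13 signals. STAT proteins are controlled mainly by phosphorylation, which messenger RNA does not show, and the DKI changes are in the protein, so the levels below do not check the genotype labels.

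Values are the submitters' log2(RPKM + 1), where RPKM is the read count scaled to gene length and library depth and 1 is the pseudocount. Estimated depth, read from the spacing of low values, was 12500000 to 31700000 assigned reads per library, and a STAT gene drew 139 to 18725 reads, the lowest being Stat4 in spinal cord monocytes. All 9 monocyte markers reached 1 RPKM in each myeloid library and all 6 Th17 markers did so in each Th17 library. Of the monocyte markers 7 to 9 also reached it in the Th17 libraries, where the 9 summed to 207 to 805 RPKM against 13365 to 22680 in the myeloid ones. The highest of the 9, as log2(RPKM + 1), was Plac8 in the WT and DKI Th17 groups (7.12 to 8.44). In the CCL17 experiment it was Lyz2 (8.40 to 8.85). Markers of other cells were present too: the summed RPKM of 9 T cell markers was 0.543 in bone marrow monocytes, 29.1 in spinal cord monocytes and 31.1 in APCs, against 2224 to 3203 in Th17 libraries, and 8 neutrophil markers summed to 6724 in the bone marrow library against 736 and 1009 in the cord libraries. The 9 microglia markers summed to 145 in the marrow, 448 in cord monocytes and 1122 in APCs. In these bulk samples fewer cells of a type and less RNA per cell cannot be told apart.

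Of the 6 genes, 3 lie side by side in the mouse genome (build mm10, RefSeq annotation of GRCm38.p6). Stat5b is at chr11:100780731-100859004, Stat5a at chr11:100859351-100885169 and Stat3 at chr11:100886806-100939594, with gaps of 346 and 1636 bases and 0 annotated genes in either gap. Stat6 (chr10:127642955-127660987) and Stat2 (chr10:128270498-128292853) are 0.610 Mb apart with 39 genes between them, and Stat4 is at chr1:51987106-52107189. Stat5a and Stat5b are close copies: 14.7% of the 50-base stretches in Stat5a's coding transcripts also occur in Stat5b's, and no other pair with either of them shares any, so reads from the shared stretches may be split between these genes and their separate levels carry that uncertainty.

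The promoter stretch that the Stat2 results below refer to is shown here, beside stretches of 3 interferon-responsive genes. Stat2, Isg15 and Rsad2 are known interferon targets, and Ifi213 was among the 3 genes whose profile across the libraries was nearest to that of Stat2. The capitals mark GAAANNGAA, core letters of the interferon-stimulated response element that the complex of STAT2 and IRF9 binds, searched on both strands in the 250 bases before each gene start. On the strand opposite to the gene it reads TTCNNTTTC.
Stat2 (chr10:128270257-128270305, plus strand): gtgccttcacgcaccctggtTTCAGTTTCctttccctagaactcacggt
Ifi213 (chr1:173599317-173599365, minus strand): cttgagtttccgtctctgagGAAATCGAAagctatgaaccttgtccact
Isg15 (chr4:156200862-156200910, minus strand): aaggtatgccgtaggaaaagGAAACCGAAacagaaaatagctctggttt
Rsad2 (chr12:26456543-26456591, minus strand): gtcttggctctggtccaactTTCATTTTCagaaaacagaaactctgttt
The sequences are RefSeq's, build GRCm38.p6, read 5′ to 3′ on the gene's strand. Isg15 holds 3 overlapping matches in this stretch, of which the middle one is capitalised. Over all 32851 promoters in the table, 7.13% hold the motif, or 8.18% of genes. Of the 25 genes of an interferon list described below, 18 have a promoter in the table and 8 of those hold it. Among the STAT genes, the match in Stat2 ends 213 bases before the start, and 1 of the listed starts of Stat4 has another match ending 89 bases before it. TTCNNNGAA, the core letters bound by most STAT dimers, occurs in 7.02% of promoters and in none of these windows for the 6 genes. The 2 motifs share the letters GAA and may overlap. Only genes with a match are printed above. A match describes letters only, and the interferon motif was chosen after the expression values were seen.

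Stat3 and Stat6 were high in every library, whereas Stat4 divided the lineages. Stat3, the Th17 driver, was at 6.47 in the marrow library, 6.34 in cord monocytes and 6.18 in APCs, at 7.20 and 7.23 in WT Th17 cells and at 6.93 and 6.89 in DKI Th17 cells. In the CCL17 experiment it was at 6.68, 6.94 and 6.89 without and 6.50, 6.87 and 6.91 with the chemokine. Every Th17 library was therefore above every myeloid one, but by a small margin. Stat6, the IL-4 factor, spanned only 0.73 log2 units over the 13 libraries: 6.59, 6.18 and 6.04 in the myeloid order above, 6.35 and 6.49 in WT, 6.26 and 6.40 in DKI, 5.95, 6.07 and 6.07 without CCL17 and 5.86, 6.11 and 6.09 with it. Its myeloid and Th17 ranges overlapped.

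Stat4, which carries IL-12 signals in T cells, was at 2.07, 1.42 and 2.56 in the 3 myeloid libraries. In Th17 cells it was at 6.75 and 7.05 in WT, 6.80 and 6.93 in DKI, 6.58, 6.57 and 6.58 without CCL17 and 6.47, 6.58 and 6.62 with it. The ratio of the median RPKM in Th17 libraries to that in myeloid libraries was 29.9. Stat4 was low but measured in the bone marrow library, at 3.21 RPKM from 321 estimated reads, where the 9 T cell markers summed to 0.543 RPKM and 4 of them were at 0. Which cells of that library gave the Stat4 reads was not tested.

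Stat5a was at 3.99 in the marrow, 2.95 in cord monocytes and 3.14 in APCs. In Th17 cells it was at 5.43 and 5.53 in WT, 5.42 and 5.43 in DKI, 5.37, 5.71 and 5.63 without CCL17 and 5.36, 5.71 and 5.70 with it. Stat5b was at 5.11, 3.75 and 3.68 in the myeloid libraries, 6.24 and 6.31 in WT, 5.93 and 6.02 in DKI, 5.68, 5.82 and 5.80 without CCL17 and 5.62, 5.83 and 5.86 with it. Both genes had their lowest levels in the spinal cord, and the median RPKM in Th17 libraries was 5.58 times (Stat5a) and 4.54 times (Stat5b) the myeloid median.

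Stat2, the interferon factor, was the least uniform within a group. It was at 4.49 in the marrow, 5.81 in cord monocytes and 5.35 in APCs, 7.51 and 6.12 in WT, 5.46 and 6.19 in DKI, 4.25, 5.002 and 4.87 without CCL17 and 4.41, 4.999 and 4.97 with it. WT replicate 1 stood above every other library, and replicate 1 was the lowest of its group both with and without CCL17.

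**Figure D1:**
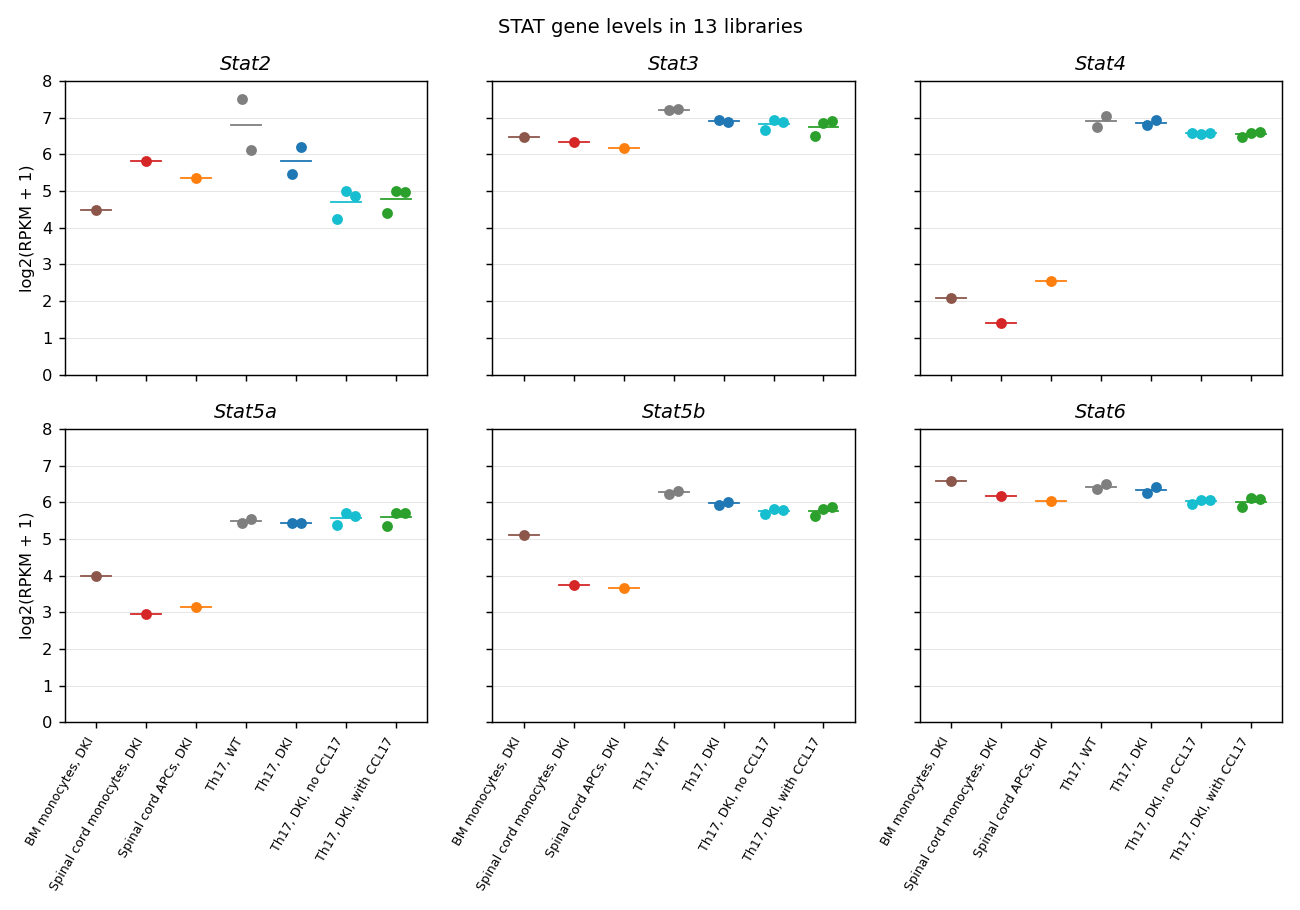
Level of each STAT gene, as log2(RPKM + 1), in 7 groups; each point is 1 library and each bar a group mean. Stat4 lies between 1.42 and 2.56 in the 3 myeloid libraries and between 6.47 and 7.05 in the 10 Th17 libraries, while Stat6 stays between 5.86 and 6.59 throughout.

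All 3 myeloid libraries lay below all 10 Th17 libraries for 4 of the 6 genes, Stat3, Stat4, Stat5a and Stat5b. The same held for 42.9% of the 12141 genes with at least 1 RPKM in at least 2 libraries, so the pattern was common among genes. For 0 of the 6 were the myeloid libraries all higher (10.5% of genes), a count that becomes 1 when libraries are centred on their median genes. The lineages also differ in tissue, culture and immunization, which cannot be told apart, and no test was made.

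Because RPKM is scaled to gene length, the genes can be set side by side as shares of their summed RPKM. Stat3 and Stat6 filled most of the myeloid share, with 34.2 to 35.5% and 31.4 to 37.3%. In Th17 cells they had 23.1 to 29.0% and 12.8 to 16.7%. Stat4 went from 0.735 to 2.44% in myeloid libraries to 16.9 to 25.9% in Th17 libraries, where it ranked between 1 and 3 of the 6. Stat5a held 2.96 to 5.82% in myeloid and 6.65 to 12.3% in Th17 libraries, and Stat5b 5.48 to 13.1% and 11.8 to 14.0%. Stat2 ranged most within the Th17 libraries, from 4.93% in a library without CCL17 to 28.7% in WT replicate 1, where it was the most abundant of the 6, and held 8.38 to 24.2% in myeloid libraries.

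**Figure D2:**
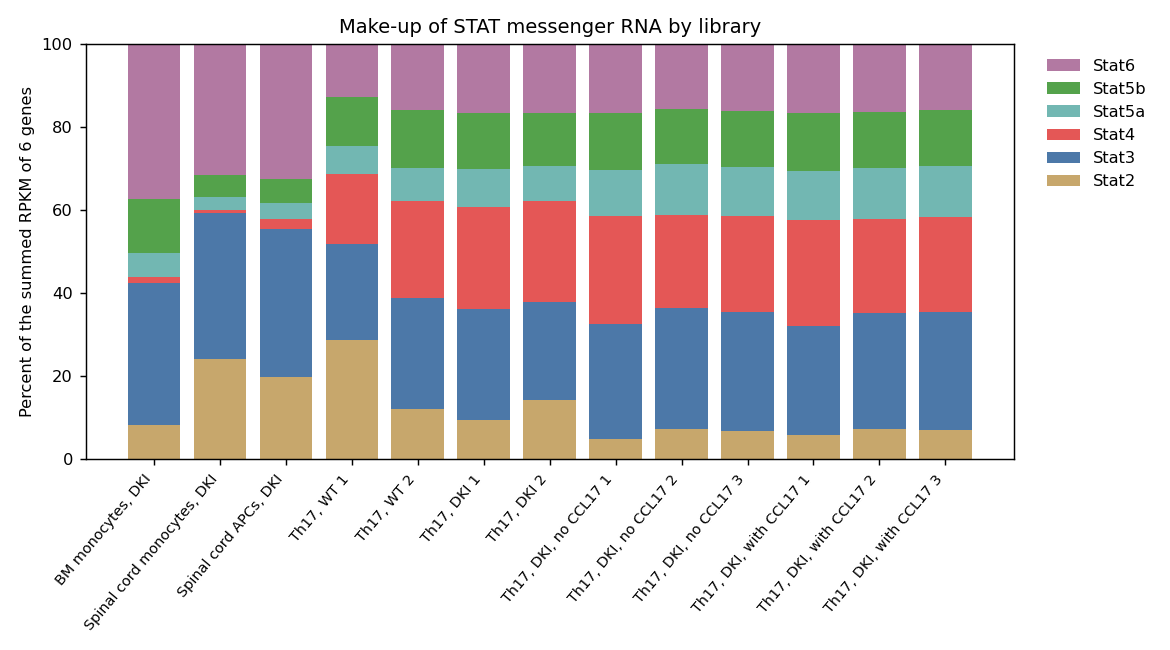
Share of the summed RPKM of the 6 genes taken by each gene, in percent, with 1 bar per library. Stat4 takes at most 2.44% of a myeloid bar and at least 16.9% of a Th17 bar, and Stat2 takes 28.7% of the bar for WT replicate 1.

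Spinal cord monocytes were compared with bone marrow monocytes to see how the family differs between monocytes in the inflamed tissue and at their source. Stat2 was higher in the cord, and both Stat5 genes were lower. With 1 library each there is no replicate check, so the intervals below cover counting error only. Stat2 was at 55.1 RPKM in the cord and 21.4 in the marrow, a 2.57-fold difference (95% exact interval 2.46 to 2.68). Stat5a was 2.21-fold lower in the cord (2.03 to 2.42), at 6.74 against 14.9 RPKM, and Stat5b 2.68-fold lower (2.55 to 2.83), at 12.5 against 33.5 RPKM. Stat6 was 1.34-fold lower and Stat3 was at 0.915 of its marrow level. Stat4 was at 1.67 against 3.21 RPKM, a ratio of 0.521 (0.423 to 0.636), resting on 139 and 321 reads.

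A log2 difference of at least 1 was reached upward by 1 of the 6 genes (12.2% of the 10475 genes tested) and downward by 2 (17%). The median gene was lower by 0.32 in the cord library. With libraries centred on their median genes, Stat5a's log2 difference of -1.04 became -0.74, which leaves 1 gene, Stat5b, past that size. Markers of other cells differed along with these values: 8 of 8 neutrophil markers were at least 2-fold lower in the cord, and 8 of 9 T cell markers, 8 of 8 tested microglia markers and 8 of 9 tested antigen presentation markers at least 2-fold higher. Genes were tested with at least 1 RPKM in either library, which 0 of 9 T cell markers and 4 of 9 microglia markers reached in the marrow. The rest of those tested passed through the cord alone and could not be counted as lower. The part of other cells in the STAT differences was not tested.

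The kinases upstream differed in both directions. Jak2, which serves the GM-CSF receptor among others, was 3.08-fold higher in the cord (95% exact interval 2.98 to 3.18), and Tyk2, a kinase of the interferon and IL-12 receptors, was 2.17-fold lower (2.08 to 2.27). Jak1 had a ratio of 0.848 and Jak3 of 1.67. Of the receptor list, 10 of 23 genes tested were at least 2-fold higher and 4 lower. Il7r was higher by 5.39 log2 units and Il21r by 3.65, whereas Il6ra was lower (-1.77), as was its signalling partner Il6st (-1.67). Of 11 ligand genes tested 9 were at least 2-fold higher and 0 lower, led by Osm (4.99) and Il6 (4.24), both of which signal through gp130 receptors. Among all genes tested 12.2% were higher and 17% lower. Of the 23 listed ligands 4 reached 1 RPKM in the marrow and 11 in the cord, and of the 27 receptors 18 and 23. Genes that reached it in the cord alone could not be counted as lower, so these counts lean upward by the filter. Il10, an anti-inflammatory ligand that uses STAT3, was at 3.72 in the cord and listed at 0 in the marrow.

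Of the 17 STAT inhibitors tested, 5 passed 2-fold upward in the cord and 1 downward, with a median log2 difference of -0.10. The 5 were Cish, Socs1, Socs2, Socs3 and Usp18, whereas Socs4 (-0.37), Socs5 (-0.16), Socs6 (-0.97) and Socs7 (0.07) did not pass. Cish, a STAT5-induced inhibitor, was at 0.31 in bone marrow monocytes, 4.70 in cord monocytes and 4.19 in APCs, a 103-fold RPKM ratio between the monocytes (95% exact interval 71.4 to 156, on 28 reads in the marrow). Its level in the 10 Th17 libraries was 5.72 to 6.11. Socs3, induced by STAT3, was at 8.97 in cord against 4.30 in marrow monocytes, 26.9-fold higher (25.6 to 28.4), and Socs1 was 33.5-fold higher (28.3 to 40.3). Socs2, another STAT5 target, went from 0.08 to 2.29 on 5 and 278 reads. Cish was thus higher in the cord library while Stat5a and Stat5b were lower there.

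Lists of target genes, chosen for the STAT best known to act on them in either direction, were each higher at the median. Their counts therefore do not measure the activity of a STAT. For STAT5 targets 10 of 15 tested were at least 2-fold higher and 1 lower, with a median of 1.50 against -0.32 for all genes. Of the 18 listed, 8 reached 1 RPKM in the marrow and 15 in the cord. Genes tested through the cord alone could not be counted as lower, here and in the lists below. Ccnd2 was higher by 2.75, and Ccnd3, the other D-type cyclin of the list, lower by 2.82 (log2 difference -2.82). STAT3 targets had 7 of 12 higher and 1 lower, STAT4 targets 4 of 7 and 0, and STAT6 targets 5 of 7 and 1. In the STAT3, STAT4 and STAT6 lists 10, 5 and 4 genes reached 1 RPKM in the marrow against 12, 7 and 7 in the cord. In the last group Arg1, which consumes arginine in alternatively activated macrophages, was higher by 9.51 and Ccl24 by 4.87. Interferon targets had 15 of 25 higher and 0 lower, with a median of 1.51, including Rsad2 (4.06) and Isg15 (3.76). Irf9, the DNA-binding partner of STAT2, was not among them: its RPKM ratio was 0.911 (95% exact interval 0.872 to 0.951).

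Within the cord, STAT levels in APCs and monocytes were within 2-fold of each other apart from Stat4. Stat4 was at 4.89 RPKM in APCs and 1.67 in monocytes, 2.93-fold higher (2.40 to 3.58, on 373 and 139 reads), and was the 1 gene of 6 to pass 2-fold upward (1.71% of 10300 genes). Downward, 0 of 6 passed (0.816% of genes). With a minimum of 5 RPKM Stat4 is no longer tested. The T cell marker sums of 29.1 and 31.1 RPKM in cord monocytes and APCs differed little, and all 9 T cell markers had log2 differences under 1 in size. Antigen presentation markers were higher in APCs (summed RPKM 23425 against 12201), as were 9 of 9 microglia markers. The part of any of these cells, T cells included, in the Stat4 value was not tested. Stat2 was lower in APCs by 0.46 log2 units, Stat3 by 0.17 and Stat6 by 0.14 (log2 differences -0.46, -0.17 and -0.14), and Stat5a and Stat5b differed by 0.19 and -0.07. Only 5.22% of the genes tested had a more negative difference than Stat2. The 95% counting interval of the Stat5b ratio, 0.884 to 1.01, included 1.

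Targets in APCs separated by list. Of the interferon list 7 of 25 were at least 2-fold lower and 0 higher, with a median of -0.79, led by Cmpk2 (-1.46) and Isg15 (-1.39). Socs1 was 2.11-fold lower (1.99 to 2.24). STAT6 targets had 3 of 7 higher: the chemokines Ccl22 (4.28) and Ccl17 (2.38) and the mannose receptor Mrc1 (1.39). In the STAT3, STAT4 and STAT5 target lists 0 genes passed 2-fold in either direction.

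Against bone marrow monocytes, which both cord libraries share as a reference, APCs had Stat5b 2.84-fold lower (2.68 to 3.00) and Stat5a at a ratio of 0.526 (0.483 to 0.573), a log2 difference of -0.85. Stat2 was higher by 0.86 and Stat4 by 0.48, Stat3 and Stat6 were at -0.29 and -0.55. A 2-fold difference was passed upward by 0 (13.5% of 10660 genes) and downward by 1 of the 6 (14.9%). With libraries centred on their median genes Stat2 passes as well, at 1.07.

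**Figure D3:**
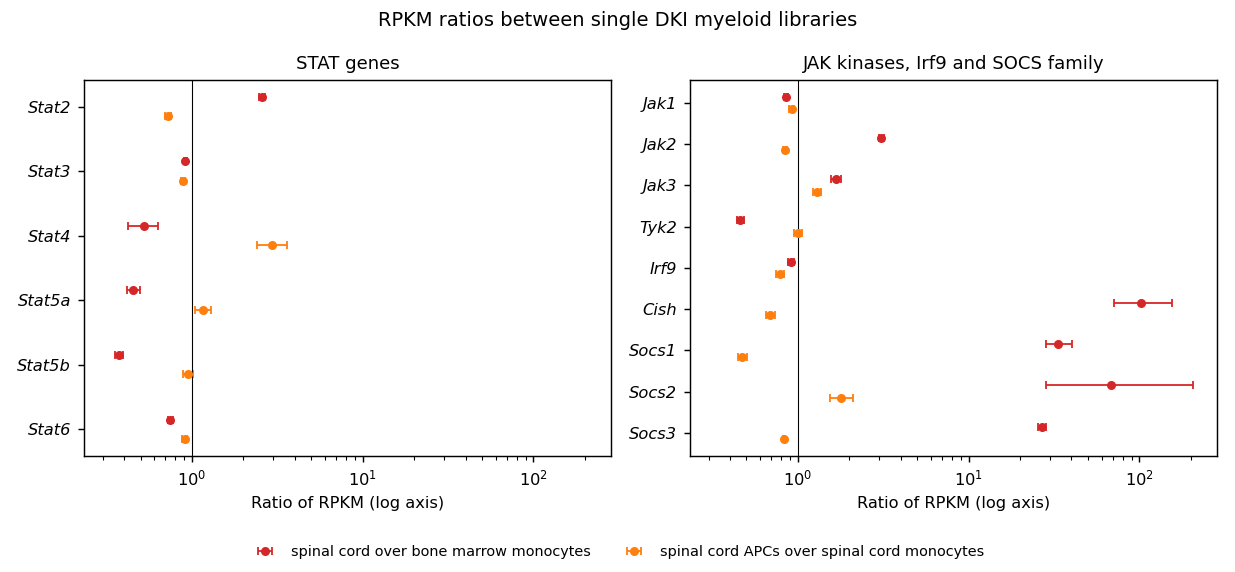
Ratio of RPKM between single DKI myeloid libraries on a log axis, for the STAT genes (left) and for JAK kinases, Irf9, Cish, Socs1, Socs2 and Socs3 (right); bars are 95% exact counting intervals and cover no biological spread. Cord over marrow, Stat2 is at 2.57 and Stat5b at 0.372, while Cish is at 103 and Socs3 at 26.9.

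WT and DKI Th17 cells were compared to ask whether losing STAT5 tetramers goes with other levels of the STAT genes themselves. By limma with Benjamini-Hochberg adjustment over 11078 genes, 0 of the 6 STAT genes were called higher (0% of genes) and 0 lower (0%) at an adjusted p under 0.05. At an unadjusted p under 0.05, 914 genes were higher and 965 lower, and 1 STAT gene, Stat5b, was among them. Groups did not overlap for 2 of the 6 genes, Stat3 and Stat5b, as for 39.9% of all genes. This fit did not use the replicate numbers. With the replicate number as a block, limma called Stat3 and Stat5b lower, along with many other genes counted in the last section. Whether equal numbers pair the samples cannot be shown from 2 pairs.

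Stat5b was at 6.24 and 6.31 in WT and 5.93 and 6.02 in DKI, a log2 difference of -0.30 (SE 0.10, limma adjusted p = 0.212). Stat3 differed by -0.31 (SE 0.15, adjusted p = 0.317). Both DKI libraries were below both WT libraries for these neighbouring genes. Stat5a, which lies between them, differed by -0.05 (95% interval -0.39 to 0.28). Stat4 differed by -0.03 (-0.28 to 0.22) and Stat6 by -0.09 (-0.34 to 0.16). These intervals leave room for changes of up to about that size in either direction.

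The Stat2 difference was the widest of the 6 and changed in size with single libraries. It was -0.99 (SE 0.46, limma adjusted p = 0.312), with WT at 7.51 and 6.12 and DKI at 5.46 and 6.19. Without WT replicate 1 it was -0.29, without WT replicate 2 it was -1.68, and without DKI replicate 1 and 2 it was -0.62 and -1.35. Each of these fits leaves 1 library in a group, so only the size of the difference is given. The 25 interferon targets followed the same libraries: their median level was 7.23 and 5.36 in WT and 4.38 and 5.43 in DKI. Their median log2 difference was -1.28 against 0.03 for all genes, with 0 of 25 called. Without WT replicate 1 it was -0.35. Without WT replicate 2, which leaves replicate 1 alone for WT, it was -2.34, and without DKI replicate 1 and 2 it was -0.80 and -1.65. Among these 4 libraries the medians of the monocyte and myeloid markers were also highest in WT replicate 1 and lowest in DKI replicate 1. The median level of 9 monocyte markers was 4.73 and 3.13 in WT and 2.08 and 3.47 in DKI. That of 10 myeloid markers was 3.15 and 2.46 in the WT libraries against 1.72 and 2.06 in the DKI ones. Not every marker followed: Ccr2 was highest in DKI replicate 1 (5.30), Plac8 in DKI replicate 2 (8.44), and Cst3 was lowest in WT replicate 1 (6.07). The median log2 difference was -0.82 over 8 tested monocyte markers, -0.93 over 9 myeloid markers and -0.91 over 3 neutrophil markers, with 0 called, and their part in the Stat2 and interferon values was not tested. Rsad2 differed by -2.16 and Ifit1 by -1.87, and Usp18, which blocks the interferon receptor, by -1.78. Irf9 was at 6.38 and 6.04 in WT and 5.47 and 6.00 in DKI.

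**Figure D4:**
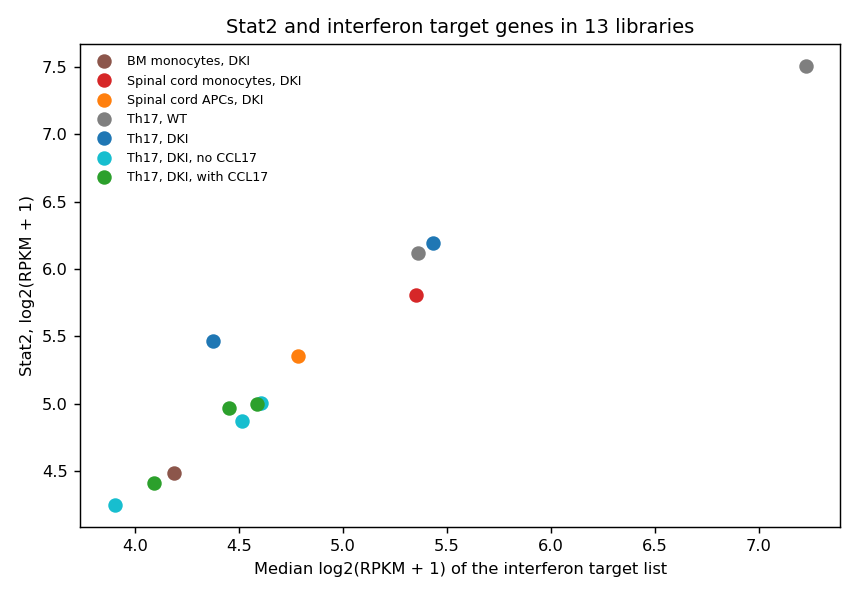
Stat2 level against the median level of 25 interferon target genes, both as log2(RPKM + 1), with 1 point per library coloured by group. WT replicate 1 is highest on both axes (7.51 and 7.23) and the first library without CCL17 lowest on both (4.25 and 3.90), and the other WT library lies beside DKI replicate 2.

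Over the whole series, the genes nearest to Stat2 in profile, by the mean absolute difference of log2 values after centring each gene over 13 libraries, were Zbp1 (0.12), Xaf1 (0.16) and Ifi213 (0.17) among 11547 genes. Zbp1 and Xaf1 are members of the interferon list. The listed promoter of Ifi213 holds the motif printed above and that of Xaf1 does not. No match is listed for Zbp1, whose promoter may not be among those searched. The libraries fall into lineages and experiments, so no correlation was computed.

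The rest of the pathway was searched in the same WT and DKI libraries with lists of JAK kinases, inhibitors, receptors, ligands and targets, and 0 genes of any list were called. List medians were -0.11 for JAK kinases, -0.05 for inhibitors, -0.15 for receptors, 0.08 for ligands, -0.00 for STAT5 targets, -0.15 for STAT3 targets, 0.09 for STAT4 targets and -0.18 for STAT6 targets. Cish, the classical STAT5 target, was at 6.05 and 5.98 in WT and 6.11 and 5.95 in DKI. Il2ra, the IL-2 receptor chain induced through STAT5, was at 8.66 and 8.32 in DKI and 8.10 and 8.13 in WT. Wide differences without a call included those of Il6ra (-0.92, limma adjusted p = 0.129), Bcl6 (-0.77, 0.093) and Il12rb2 (0.67, 0.106), and Il13 had the widest of the ligands (1.68).

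Stat5b exceeded its close copy Stat5a in every library, by a margin that varied with the group. The ratio of Stat5b to Stat5a RPKM was 1.73 and 1.78 in WT and 1.43 and 1.51 in DKI Th17 cells. It was 1.07 to 1.24 without CCL17 and 1.09 to 1.20 with it, and among myeloid libraries 2.25 in the marrow, 1.85 in cord monocytes and 1.50 in APCs. By an exact two-sided permutation test the WT and DKI ratios gave p = 0.333, the smallest that 2 libraries against 2 can give. The ratios with and without CCL17 overlapped (exact permutation p = 0.9). This ratio was computed after the separate levels were seen.

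Adding CCL17 to DKI cultures was tested next, with 3 libraries in each group. No STAT gene was called: 0 of 6 rose (0% of 11297 genes) and 0 fell (0%) by limma. Over all genes 239 were higher and 172 lower at an unadjusted p under 0.05, with 0 STAT genes among them. Groups overlapped for all 6, whereas 9.49% of genes did not overlap. Log2 differences were 0.09 for Stat2, -0.08 for Stat3, -0.02 for Stat4, 0.02 for Stat5a, 0.01 for Stat5b and -0.01 for Stat6, each with a limma adjusted p of 0.999. The 95% intervals were narrowest for Stat4 (-0.15 to 0.12) and widest for Stat2 (-0.49 to 0.67). Paired by replicate number, the difference ranged over all genes and pairs from -0.18 (Stat3, pair 1) to 0.16 (Stat2, pair 1), and with the replicate number as a block limma called 2 genes higher, 0 of them STAT genes.

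Of the pathway lists 0 genes were called with CCL17, and list medians lay between -0.11 (ligands) and 0.05 (JAK kinases). The widest differences were in Ccl24 (-0.51), Csf2ra (-0.37), Il15 (-0.36) and Ifng (-0.30), all with a limma adjusted p of 0.999. Cish was at 6.04, 5.92 and 5.92 without and 5.72, 6.02 and 5.97 with CCL17.

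The labels describe 2 sets of DKI Th17 cultures without added CCL17: the DKI group above and the controls of the CCL17 experiment. They shared genotype and protocol as far as the labels say, so their difference shows how far sets of cultures vary, and any difference in handling cannot be told apart from it. Both groups are also used in the comparisons above. Stat6 was the 1 STAT gene called, lower in the CCL17 experiment by limma (17.8% of 11507 genes), at 5.95, 6.07 and 6.07 against 6.26 and 6.40 (log2 difference -0.30, SE 0.10, adjusted p = 0.0498). The call was lost without a filter on low values (0.0549), in a fit of these 2 groups (0.0779) and without any 1 of the 5 libraries (0.0527 to 0.204). Upward 0 STAT genes were called (15.4% of genes).

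Stat2 differed by -1.12 (SE 0.42, limma adjusted p = 0.0707), Stat4 by -0.29 (SE 0.10, 0.0529) and Stat5b by -0.21 (SE 0.09, 0.114). Groups did not overlap for these and for Stat6, 4 of 6 genes, as for 55.6% of all genes. Stat3 (-0.07) and Stat5a (0.14) overlapped. With libraries centred on their median gene, or with quantile normalization, Stat4 (adjusted p 0.0252 and 0.0192) and Stat5b (0.0464 and 0.0342) were called along with Stat6. The Stat2 difference between these sets was as wide as that between WT and DKI.

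**Figure D5:**
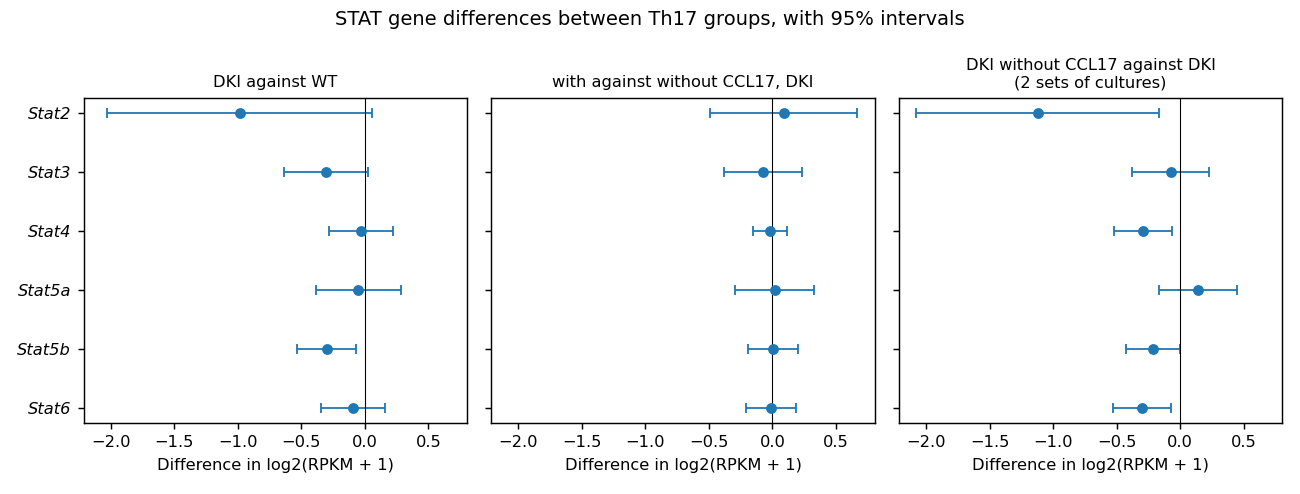
Difference in log2(RPKM + 1) for each STAT gene in 3 comparisons of Th17 groups, with limma's 95% intervals before adjustment. The CCL17 differences lie between -0.08 and 0.09, and the Stat2 intervals are the widest in each panel.

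Kinases, receptors, ligands and inhibitors were compared between these sets of cultures, where 15.4% of all 11507 genes were called higher and 17.8% lower. Jak3, the kinase of the common gamma chain, was lower by 0.85 in the CCL17 experiment (log2 difference -0.85, limma adjusted p = 0.0004) and Jak1 by 0.52 (-0.52, 0.0071), 2 of 4 kinases. Receptors split: 6 of 25 rose, including the GM-CSF receptor chains Csf2rb (3.26) and Csf2ra (1.56), the G-CSF receptor Csf3r (2.38) and Il13ra1 (1.84), and 6 fell, including Il6ra (-1.15), Il27ra (-1.04), Ifngr1 (-0.95) and Ifnar1 (-0.51). Of 19 ligands 9 rose, led by Il12a (2.47), Il13 (1.90) and Csf2 (1.84), and 0 fell. At least 1 RPKM was reached by 13 to 14 of the 23 ligands in the DKI group and by 15 to 20 without CCL17. Some ligands may therefore have been tested only through the group where they rose. Among 17 inhibitors Pias4 rose (0.26) and Socs2 (-0.64), Socs5 (-0.51) and Pias3 (-0.40) fell.

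Target lists did not move one way, and their counts stand beside 15.4% of all genes called higher and 17.8% lower. STAT6 targets had 6 of 12 higher, among them Arg1 (5.56), Mrc1 (4.97) and Chil3 (4.96), which macrophages express, and 2 lower, the T cell genes Il1rl1 (-1.08) and Gata3 (-0.47). STAT4 targets had 1 of 10 higher, Hlx (1.36), and 3 lower, Cxcr3 (-1.15), Il18rap (-1.15) and Il18r1 (-1.11). STAT3 targets had 3 of 17 higher, Il17a (2.23), Il22 (1.56) and Junb (0.61), and 2 lower, Il6ra and Bcl3 (-0.60). The count of higher STAT3 targets changed without DKI replicate 1, a fit that leaves 1 library in the DKI group. STAT5 targets had 1 of 18 higher, Il2ra (0.46), and 3 lower, Prf1 (-0.84), Socs2 and Bcl6 (-0.47). Interferon targets had 1 of 25 lower, Irf9 (-0.59, limma adjusted p = 0.037), a count that also changed without DKI replicate 1.

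Markers of other cells moved with this comparison. All 10 myeloid markers were called higher, with a median of 4.06, and their summed RPKM was 97.8 to 126 in the DKI group and 832 to 1197 without CCL17. All 5 B cell markers and 5 of 6 tested neutrophil markers were higher, and 5 of 9 T cell markers lower with a median of -0.28. Their part in the STAT, receptor, ligand and target differences was not tested. With CCL17 the myeloid sum was 787 to 978, so the ranges of the groups of that experiment overlapped, but it was lower with CCL17 in each replicate pair: 787 against 832, 939 against 1180 and 978 against 1197. The median log2 difference of these 10 markers with CCL17 was -0.21, with 0 called.

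By the measure used for Stat2, the nearest profiles were those of Gimap5 for Stat4 (0.20), Taf9b for Stat5a (0.13), Zfp866 for Stat5b (0.08) and Wdr37 for Stat6 (0.06). Within the family the nearest pairs were Stat3 with Stat6 (0.26) and Stat5a with Stat5b (0.27).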

How the data were processed

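The authors deposited log2 values, log2(RPKM + 1), with 0.0001 for zero, for 13 libraries; Subread, featureCounts and the mm10 build are named per the submitters' processing notes, with versions and settings not given in the sources used here. Base and pseudocount were checked on the values: with base 2, RPKM times gene length in kilobases sums to 1023079 to 1061065 per library. Entrez IDs matched RefSeq symbols for 20857 of 21073 genes (216 did not). Estimated depth is the lowest total at which low values come close to whole reads (72.9 to 79.3% of them within 0.1 read). Multiples of that total fit as well, so the choice of the lowest is an assumption on which the estimated reads and intervals rest. One column was matched to the APC sample because it was the only monocyte-derived sample left. Th17 groups were tested with limma 3.58.1 (R 4.3.3) on genes with at least 1 RPKM in at least 2 libraries (3 for CCL17), with Benjamini-Hochberg adjustment and calls under 0.05; the fits for WT, DKI and the 2 DKI sets use all 10 Th17 libraries, that for CCL17 its own 6. The code was tested on simulated data. Myeloid libraries were described without a test, with 95% exact binomial intervals on estimated reads, which cover counting error only. The main CCL17 fit did not use the labels' replicate numbers, and pairs by number and a block were alternatives. Deviations from group means correlated within each number (0.77, 0.51 and 0.52). Replicates 2 and 3 correlated with each other across groups as much (0.50 and 0.53), so these values do not establish that equal numbers are pairs. List genes are named where called, up to 4 per direction, otherwise by size of difference. Members and lists were chosen with earlier results of these data known. Alternatives were other scalings, pseudocounts, filters, fits, blocks and leaving out libraries. The gene nearest in profile to Stat3 is not reported here.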

Additional observations from a re-analysis of the deposited data

How the results depend on the processing

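Without replicates, the myeloid values have no error beyond counting, and 2 libraries per group give wide intervals for WT against DKI. In WT against DKI, the replicate number as a block, which rests on numbers that 2 pairs alone cannot show to pair samples (correlation 0.45), gave 811 genes higher and 470 lower, with 2 STAT genes lower, Stat3 (adjusted p 0.0427) and Stat5b (0.0362); quantile normalization gave 1 and 3 genes. Leaving out each library gave 0 to 285 genes higher and 0 to 295 lower (with 1 library left in a group, it is assumed to vary like the others) and 0 STAT genes. Leaving out libraries moved Stat4 between -0.181 and 0.119 and Stat5a between -0.105 and 0.0035, so that neither kept its direction. With CCL17 the block gave 2 genes higher. Quantile normalization turned Stat4 (0.0245) and Stat6 (0.0266), and leaving out libraries moved Stat2 between -0.142 and 0.278, Stat3 between -0.154 and 0.0541, Stat4 between -0.0501 and 0.0230, Stat5a between -0.0827 and 0.133, Stat5b between -0.0409 and 0.0827 and Stat6 between -0.0539 and 0.0687; no STAT gene was called in any of these. Between the 2 DKI sets, median centring and quantile normalization gave 3 STAT genes lower and no filter, a fit of the 2 groups and each left-out library gave 0; all genes lower were 1224 in the fit of 2 groups, and leaving out libraries gave 1109 to 1790 higher and 1404 to 1814 lower, with Stat3 between -0.124 and 0.0061. The block there gave 1 STAT gene lower, with Stat6 at -0.33 (adjusted p 0.0207). Median centring left 1 STAT gene and 1041 genes lower in cord against marrow monocytes, put 1 STAT gene higher in APCs against marrow and 1 above all Th17 libraries. For APCs against cord monocytes a pseudocount of 0.1 gave 346 genes higher and 142 lower, and a minimum of 5 RPKM 116 genes and 0 STAT genes higher. That minimum removes Stat4 from the genes tested; the cause of the other changes was not tested. The replicate block changed no other call of a STAT gene. Of the alternative counts 148 stayed within 1.5 times the reported one and 32 did not. Of the values for single STAT genes 214 were counted as unchanged and 7 gained and 8 lost a call or the 2-fold mark. A further 20 turned, with no call before or after. In the myeloid comparisons a change of direction from a value below the 2-fold mark was counted as unchanged. Stat3 in cord against marrow monocytes turned in this way with median centring.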
